A study of Mus musculus with 4 samples.

Results

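The complement genes C2, C3, C4b, C7, Cfd, C1ra, C1s1, Serping1 and Cd55 were followed across the cells of mouse hindlimb muscle. They were chosen by their symbols as complement genes of stromal cells, and all 9 were found among the 32285 genes of the count tables. Single cells were prepared by enzyme digestion from 2 hindlimb muscles, the tibialis anterior and the gastrocnemius, of male mice aged 2 months, and 4 mice were pooled per genotype. Every animal carried S100GFPtg, a reporter in which the S100B promoter drives green fluorescent protein and which marks Schwann cells, the glia of peripheral nerve. The WT group (S100GFPtg) had no other allele, and the Sod1KO group (S100GFPtg Sod1-/-) also lacked superoxide dismutase 1 in all of its cells, a model in which muscle fibres lose and regain their nerve contacts. Live cells, which exclude propidium iodide, were sorted by reporter fluorescence into GFP+ and GFP- fractions, and with 1 droplet library for each fraction of each genotype every group was 1 library made from pooled animals. No difference between groups therefore has a replicate check, no test between groups was made, and the 95% intervals given here (exact Poisson for counts, Clopper-Pearson for shares, conditional binomial for ratios) cover counting error only.

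Complement is a set of blood and tissue proteins that cut and activate each other on the surface of microbes and damaged cells. The classical pathway starts when C1q, carrying the proteases C1r and C1s, binds a target and cleaves C4 and C2 into an enzyme that activates C3, whereas the alternative pathway needs factor B and factor D; both lead to a membrane pore whose assembly C7 helps to build. Most circulating complement is made in the liver, C1q comes mainly from macrophages, and fibroblasts of many tissues make C1r, C1s, C3 and the C1 inhibitor. Host cells are protected by inhibitors, among them Serping1 (C1 inhibitor, which inactivates C1r and C1s) and Cd55 (decay accelerating factor, a membrane protein that takes C3-cleaving enzymes apart).

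The libraries held 81320146 UMIs (unique molecular identifiers, 1 per captured RNA molecule) in 5498 barcodes for WT GFP+, 105954116 in 7267 for Sod1KO GFP+, 21959719 in 2052 for WT GFP- and 101410418 in 6598 for Sod1KO GFP-. After filtering and removal of presumed doublets, 4581, 5940, 1648 and 5146 cells were kept in that order and grouped into 37 clusters without the complement genes. Sod1 itself read 91, 98.1, 123 and 113 CPM (counts scaled to a common library total) in WT GFP+, Sod1KO GFP+, WT GFP- and Sod1KO GFP-, but the 3' tags counted here need not cover the deleted part of that gene and so check nothing about the genotype. The WT GFP- library stood apart: 54.6% of its cells fell into clusters that no marker list named, against 12.5 to 28.9% in the other libraries, and only 43 of its cells were fibroblast-like. It was therefore used for levels but for no ratio between libraries. Across the libraries 84 barcodes occurred in more than 1 library, and 16 of the 2608 fibroblast-like cells were among them.

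The 4 fibroblast-like classes were named by the genes that mark them. The Pi16 class (215 cells, Pi16 at 3417 CPM, Dpp4 at 415 CPM) carried the genes of universal adventitial fibroblasts. The Myoc class (990 cells, Myoc at 2434 CPM, Pdgfra at 591 CPM) had those of fibro-adipogenic progenitors. The Inmt class (916 cells) expressed Inmt at 801 CPM and Rbp4 at 956 CPM, and its cells were shallow, with a median of 3249 UMIs. The Smoc2 class (487 cells, Smoc2 at 3727 CPM) also had Sox9 at 208 CPM and Osr2 at 81.1 CPM. Dcn, a collagen-binding proteoglycan of fibroblasts, ranged from 8657 to 22731 CPM over these 4 classes, whereas Ptprc, the CD45 of blood cells, stayed at 0.421 CPM or less. Tenocyte-like cells, with Tnmd at 2368 CPM and Fmod at 8924 CPM, were kept as a class of their own.

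The promoters of C3 and C7, which differed between the sorted fractions, and of C1ra and C1s1, which encode the paired proteases, are shown so that those results can be set beside sequence. RefSeq promoter entries (GRCm38.p6, 300 bases, from 250 before to 50 after the annotated start) matched 6 of the 9 genes; C2, C4b and Serping1 had none. Capitals mark matches, on either strand, to 5 motifs that were searched: C/EBP (TTGCNNAA, in 10.8% of 32851 promoters), GAS (TTCNNNGAA, 8.3%), ISRE (GAAANNGAA, 8.56%), AP-1 (TGA and TCA around any 1 base, 7.81%) and the TATA box (13.6%). The TATA box was read as TATAAA. The windows lie at chr17:57228087-57228386 on the minus strand for C3, chr15:5063724-5064023 on the minus strand for C7, chr6:124512371-124512670 on the plus strand for C1ra and chr6:124542310-124542609 on the minus strand for the first of the C1s1 entries.
C3: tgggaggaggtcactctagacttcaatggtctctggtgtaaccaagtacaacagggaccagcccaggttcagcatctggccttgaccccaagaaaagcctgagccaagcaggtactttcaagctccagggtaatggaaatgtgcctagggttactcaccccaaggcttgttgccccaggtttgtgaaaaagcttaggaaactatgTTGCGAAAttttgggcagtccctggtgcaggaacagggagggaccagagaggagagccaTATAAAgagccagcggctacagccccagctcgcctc
C7: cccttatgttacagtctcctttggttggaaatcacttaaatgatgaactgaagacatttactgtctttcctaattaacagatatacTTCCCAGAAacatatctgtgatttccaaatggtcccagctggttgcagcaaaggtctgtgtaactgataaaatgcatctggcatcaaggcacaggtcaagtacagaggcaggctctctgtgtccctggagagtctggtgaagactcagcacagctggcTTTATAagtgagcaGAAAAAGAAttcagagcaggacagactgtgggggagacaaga
C1ra: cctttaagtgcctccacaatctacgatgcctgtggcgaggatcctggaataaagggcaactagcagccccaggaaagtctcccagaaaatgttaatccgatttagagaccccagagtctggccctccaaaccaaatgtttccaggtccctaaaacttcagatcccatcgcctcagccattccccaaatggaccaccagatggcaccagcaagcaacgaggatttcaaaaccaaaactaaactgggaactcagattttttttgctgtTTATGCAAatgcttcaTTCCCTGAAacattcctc
C1s1: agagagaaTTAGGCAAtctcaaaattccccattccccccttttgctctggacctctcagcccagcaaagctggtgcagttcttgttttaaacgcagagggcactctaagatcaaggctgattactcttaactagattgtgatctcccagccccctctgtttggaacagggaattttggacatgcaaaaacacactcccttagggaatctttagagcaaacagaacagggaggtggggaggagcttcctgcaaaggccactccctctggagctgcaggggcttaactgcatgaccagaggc

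Counting the annotated start as 0, C3 had a C/EBP match at -45 and a TATA match at 14. C7 had a GAS match at -164, a TATA match on the opposite strand at -6 and an ISRE match at 8, C1ra had a C/EBP match at 16 and a GAS match at 32, and C1s1 had a single C/EBP match at -242. No motif was shared by C3 and C7 other than TATA, and no AP-1 match occurred in these 4 windows. The Cfd and Cd55 windows held none of the 5 motifs. A match is a run of letters and not a measured site.

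All of the 9 genes but Cfd were at least 2-fold higher in fibroblast-like cells than in all other kept cells of the same library, in each of the 4 libraries. Among all genes with at least 20 UMIs, 8.86, 8.22, 18.4 and 12.1% passed that fold in the libraries WT GFP+, Sod1KO GFP+, WT GFP- and Sod1KO GFP-. C7 stood out most, at 303, 163, 263 and 78.1 CPM in the fibroblast-like cells of WT GFP+, Sod1KO GFP+, WT GFP- and Sod1KO GFP-, against 4.02, 1.6, 1.63 and 1.64 CPM in the other cells. Its log2 ratio ran from 5.57 to 7.33. The ninth gene, Cfd, was lower in fibroblast-like cells in both GFP+ libraries (log2 ratios -4.33 and -2.50) and had too few UMIs to compare in the GFP- libraries. The clustering left these genes out, but the genes were picked with their stromal expression known, so these ratios describe where the RNA lay.

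**Figure D1:**
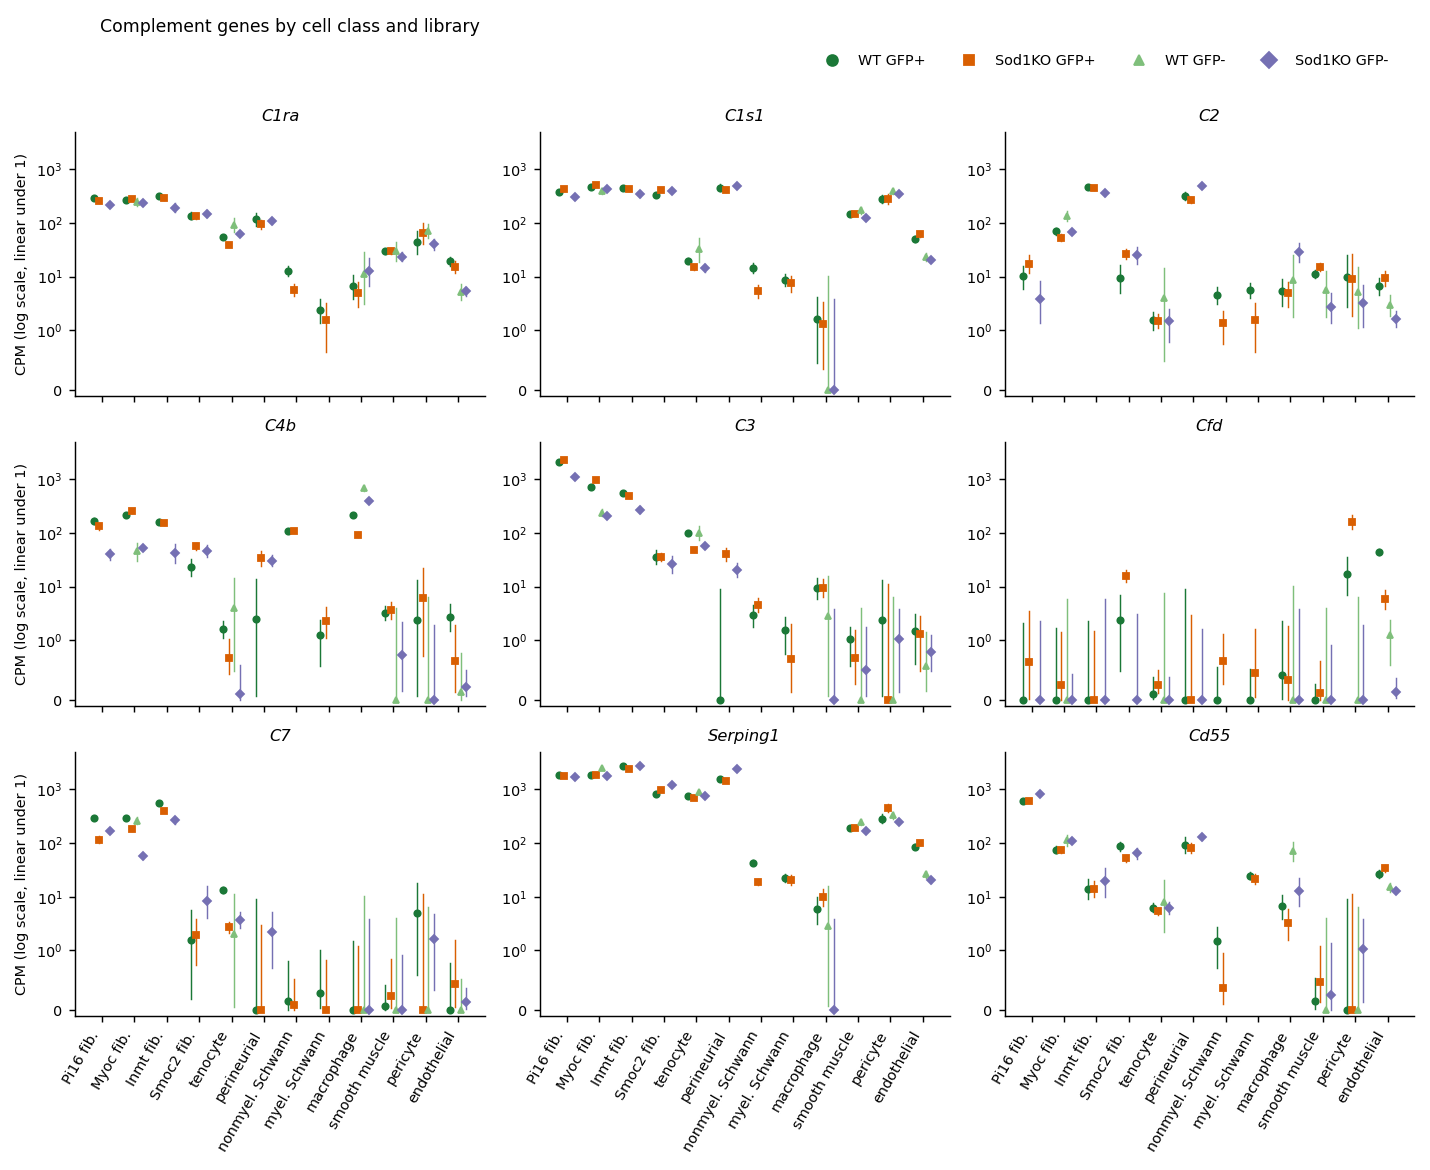
Level of each complement gene (CPM on a log scale) by cell class, with 1 point per library and bars for the 95% Poisson interval of the UMI count. Only groups of at least 10 cells are drawn. C7 is at 56.5 CPM or more in the Pi16, Myoc and Inmt classes and at 13.1 CPM or less in tenocyte-like cells.

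C1ra and C1s1 encode the proteases that form the enzyme unit of C1. C1ra read 294, 261 and 218 CPM in the Pi16 class of WT GFP+, Sod1KO GFP+ and Sod1KO GFP-, 272, 284 and 239 CPM in the Myoc class and 323, 293 and 194 CPM in the Inmt class. These 3 ranges overlapped, and the Smoc2 class lay below them at 137, 132 and 150 CPM. C1s1 read 380, 422 and 307 CPM in the Pi16 class, 463, 504 and 428 CPM in the Myoc class, 443, 426 and 352 CPM in the Inmt class and 332, 419 and 390 CPM in the Smoc2 class, so that its order among the 4 classes could not be told from the libraries. C1s1 was not particular to fibroblasts, since perineurial-like cells (the sheath of nerve bundles) had 416 to 525 CPM and pericyte-like cells, which wrap capillaries, 275 to 393 CPM. Fibroblast-like cells held 35.6% of the C1s1 UMIs in WT GFP+ and 49.2% in Sod1KO GFP+.

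Tenocyte-like cells carried the pair in other proportions. C1ra read 54.3, 38.3 and 63.5 CPM there in WT GFP+, Sod1KO GFP+ and Sod1KO GFP-, and C1s1 read 20.0, 14.9 and 14.5 CPM. C1s1 made up 27, 28, 26.2 and 18.6% of the summed C1s1 and C1ra UMIs in tenocyte-like cells of WT GFP+, Sod1KO GFP+, WT GFP- and Sod1KO GFP-. In the fibroblast-like cells of all 4 libraries together it made up 63.9% (63.3 to 64.6), and by class 58.5% in Pi16, 59.2% in Inmt, 63.8% in Myoc and 74.3% in Smoc2 cells. Perineurial-like (81.8%), smooth muscle-like (83.1%) and pericyte-like cells (87.4%) lay at the other end, above the 25.8% (24.4 to 27.2) of tenocyte-like cells over all libraries. The tenocyte-like share was the lowest of the 10 classes plotted in each of the 4 libraries. Macrophage-like cells, which were not plotted, had 14.5% (6.5 to 26.7) on 55 UMIs over all libraries and 20% on 20 UMIs in WT GFP+. Reads of C1ra and C1s1 could be split with the near-identical copies C1rb and C1s2, which were listed at 0.211 and 1.07 CPM or less.

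**Figure D2:**
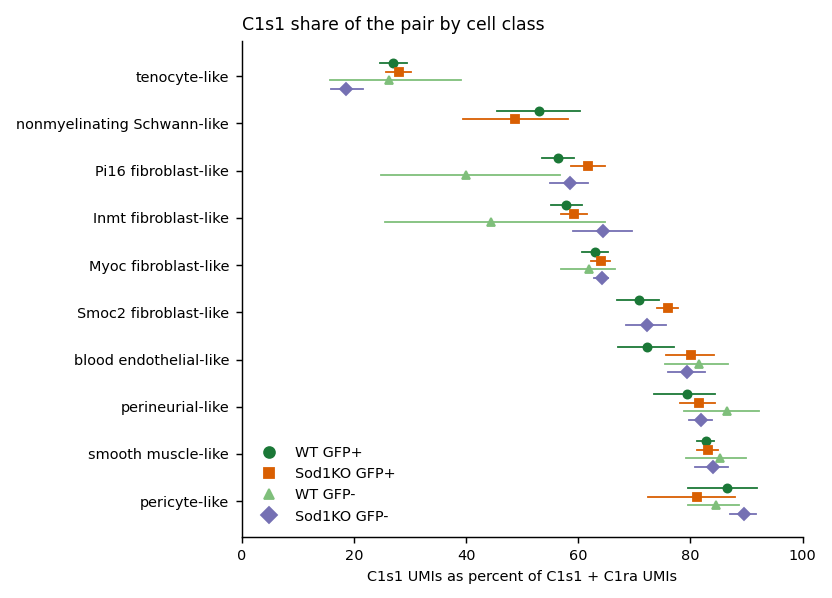
C1s1 UMIs as a percent of C1s1 and C1ra UMIs together, by cell class, with 1 point per library and bars for the 95% Clopper-Pearson interval. Tenocyte-like cells lie at 18.6 to 28%, below the other 9 classes, and pericyte-like cells lie near the top.

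C2 and C4b supply the fragments of the classical C3-cleaving enzyme, C2 carrying its protease. C2 was uneven among fibroblasts: the Inmt class had 469, 440 and 367 CPM in WT GFP+, Sod1KO GFP+ and Sod1KO GFP-, the Myoc class 69.6, 53.4 and 69.2 CPM, the Smoc2 class 9.56, 26.3 and 25.5 CPM and the Pi16 class 10.1, 17.4 and 3.78 CPM. The first 2 classes did not overlap with any neighbour in this order, whereas Smoc2 and Pi16 did. Perineurial-like cells, at 324, 268, 688 and 483 CPM in WT GFP+, Sod1KO GFP+, WT GFP- and Sod1KO GFP-, overlapped with the Inmt class and held 52.1% of the C2 UMIs of Sod1KO GFP-, more than the 39.7% of the fibroblast-like cells there. Unnamed cells held 49.9% of the C2 UMIs of WT GFP+, more than the 34.2% of fibroblast-like cells, and 38.4% against 43.2% in Sod1KO GFP+. Among them was a cluster with C2 at 176 CPM that was left unnamed because it carried both myelinating Schwann and perineurial markers. Tenocyte-like cells had 4.07 CPM or less.

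C4b was shared with macrophages and Schwann cells. It read 169, 133 and 40.3 CPM in the Pi16 class, 220, 254 and 53.6 CPM in the Myoc class and 163, 153 and 42 CPM in the Inmt class of WT GFP+, Sod1KO GFP+ and Sod1KO GFP-, with overlapping ranges, and 23.1, 56.5 and 46.7 CPM in the Smoc2 class. Macrophage-like cells had 218 CPM (200 to 237) in WT GFP+, 93.2 CPM (82.6 to 105) in Sod1KO GFP+, 698 CPM (613 to 791, 20 cells) in WT GFP- and 400 CPM (360 to 442) in Sod1KO GFP-. Nonmyelinating Schwann-like cells had 108 and 111 CPM in the GFP+ libraries of WT and Sod1KO. The share of C4b UMIs held by fibroblast-like cells was accordingly 42.8, 48.0, 10.6 and 55.6% for WT GFP+, Sod1KO GFP+, WT GFP- and Sod1KO GFP-. Reads of its copy C4a, at 1.05 CPM or less, could be split with it.

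C3 is the protein on which all pathways converge, and its level marked the Pi16 class. It read 2064, 2275 and 1107 CPM there in WT GFP+, Sod1KO GFP+ and Sod1KO GFP-, each above every value in these libraries of the Myoc class (734, 983 and 203 CPM) and the Inmt class (549, 485 and 273 CPM), whose ranges overlapped. The Smoc2 class had 35.9, 36.1 and 26.3 CPM, and in WT GFP+ 33 of its 45 C3 UMIs came from 1 cell. After each cell was thinned to 1000 UMIs, C3 was seen in 73.4%, 76.9% and 60.6% of Pi16 cells (95.3%, 100% and 90.1% unthinned), against 0.328%, 0.329% and 0% of blood endothelial-like cells (0 of 1598, which allows up to 0.188%), taken as a class that should lack C3. The limit for 0 cells is approximate and not a Clopper-Pearson bound. The class medians in Sod1KO GFP+ were 19593 UMIs for Pi16 and 11404 UMIs for blood endothelial-like cells. Tenocyte-like cells had 101, 47.5 and 57.4 CPM in the same 3 libraries.

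C7 helps to assemble the membrane pore. It read 560, 401 and 263 CPM in the Inmt class of WT GFP+, Sod1KO GFP+ and Sod1KO GFP-, 297, 182 and 56.5 CPM in the Myoc class and 288, 115 and 171 CPM in the Pi16 class. The Myoc and Pi16 ranges overlapped, and the lowest Inmt value lay below the highest of both. The Smoc2 class, at 1.59, 1.9 and 8.49 CPM, was near the level of the tenocyte-like cells (13.1, 2.68 and 3.68 CPM). Fibroblast-like cells, 13.2%, 18.7%, 2.61% and 16.6% of the cells in WT GFP+, Sod1KO GFP+, WT GFP- and Sod1KO GFP-, held 88.7%, 93.8%, 85.7% and 88.8% of the C7 UMIs. Among 433 macrophage-like cells C7 had 0 UMIs, which allows a level of up to 0.546 CPM.

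Serping1 and Cd55 are the inhibitors. Serping1 was high in every fibroblast-like class: 1822, 1746 and 1662 CPM in Pi16, 1855, 1865 and 1806 CPM in Myoc, 2742, 2392 and 2777 CPM in Inmt and 830, 973 and 1198 CPM in Smoc2 cells of WT GFP+, Sod1KO GFP+ and Sod1KO GFP-. The Inmt class was above the other 3 in each of these libraries, the Pi16 and Myoc ranges overlapped, and Smoc2 was the lowest. Tenocyte-like cells had 744, 679 and 762 CPM and, being many, held 36.6% and 39.0% of the Serping1 UMIs of WT GFP+ and Sod1KO GFP+, beside 33.2% and 35.9% in the fibroblast-like cells. In Sod1KO GFP- the fibroblast-like cells held 53.1% and the tenocyte-like cells 18.4%, and in WT GFP- 31.0% and 7.67%. Of the 2 tenocyte-like clusters, the larger read 884 CPM and the smaller 96.1 CPM, and C3 differed between them in the same order (84 and 2.25 CPM). Macrophage-like cells had 9.84 CPM or less.

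Cd55 followed the Pi16 class. It read 601, 612 and 802 CPM there, 75.2, 74.9 and 109 CPM in the Myoc class, 87.6, 51.6 and 64.6 CPM in the Smoc2 class and 14, 14.2 and 19.4 CPM in the Inmt class. Perineurial-like cells had 81.6 to 130 CPM, which overlapped with Myoc. The Inmt class thus had the highest C2, C7 and Serping1 and the lowest Cd55 of the 4 classes in each of the 3 libraries. An unnamed cluster of 25 cells, all from WT GFP-, had Cd55 at 1820 CPM, and fibroblast-like cells held 17.6% of the Cd55 UMIs of that library against 62.6 to 65.2% in the others. Reads of the copy Cd55b (29.1 CPM in the Pi16 class) could be split with it.

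Cfd, the protease known as adipsin and made mainly by fat cells, was not stromal in these libraries. It had 653, 8261, 12 and 3 UMIs in all barcodes of WT GFP+, Sod1KO GFP+, WT GFP- and Sod1KO GFP-, and 580, 2355, 10 and 3 in the kept cells. Fibroblast-like cells held 3 of these UMIs in WT GFP+, in 1 cell, and 60 in Sod1KO GFP+, in 5 cells, and none in the GFP- libraries. No cluster was named for fat cells, and over all libraries unnamed cells held 2553, blood endothelial-like cells 250 and pericyte-like cells 60 of the Cfd UMIs kept. In Sod1KO GFP+ the 3 barcodes with most Cfd held 3813, 2138 and 2070 UMIs, 97.1% of the total. Barcodes with at least 3 UMIs of 7 adipocyte markers (281 in WT GFP+ and 236 in Sod1KO GFP+) held 99.1% and 99.6% of the Cfd UMIs. In the GFP- libraries 16 such barcodes of WT held 9 of the 12 Cfd UMIs, and 177 of Sod1KO held 0 of the 3. The higher Cfd total of Sod1KO GFP+ thus lay in 3 barcodes.

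**Figure D3:**
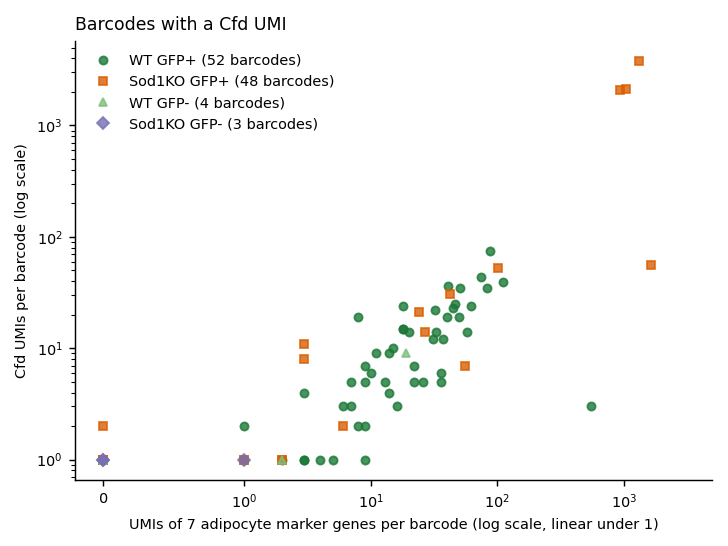
Each barcode with a Cfd UMI, by its UMIs of 7 adipocyte marker genes (horizontal, log scale, linear under 1) and its Cfd UMIs (vertical, log scale), coloured by library. The top 3 Sod1KO GFP+ barcodes lie at 2070 to 3813 Cfd UMIs, and the 4 and 3 barcodes of the GFP- libraries have few.

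The sort question, whether fibroblasts in the GFP+ and GFP- fractions of the same mice carried these genes alike, could be put to Sod1KO only, where both libraries had at least 50 cells of a class. C3, C4b and C7 were higher in GFP+ Myoc cells. C3 was at 983 CPM in GFP+ (275 cells) and 203 CPM in GFP- (560 cells), a log2 ratio of 2.28 (2.19 to 2.36). C4b was at 254 and 53.6 CPM (2.25, 2.08 to 2.41), and C7 at 182 and 56.5 CPM (1.69, 1.52 to 1.86). The 3 genes were the ones at least 2-fold apart among the 8 compared, while 5.49% of all 12936 genes compared were. In the class as a whole the other genes of the pathway were less than 2-fold apart: Serping1 at 1865 and 1806 CPM (0.05), C1s1 at 504 and 428 CPM (0.24), C1ra at 284 and 239 CPM (0.25), C2 at 53.4 and 69.2 CPM (-0.37) and Cd55 at 74.9 and 109 CPM (-0.55). The pooled C2 value joined finer groups that went opposite ways, given below. The WT libraries, with 34 Myoc cells in GFP-, had C3 at 734 and 239 CPM and C4b at 220 and 45.7 CPM, but C7 at 297 and 260 CPM. Of those 34 GFP- cells, 23 formed a group at a finer clustering with C3 at 20.3 and C7 at 53.3 CPM. The C3 and C7 values of WT GFP- thus came mainly from the few other cells.

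**Figure D4:**
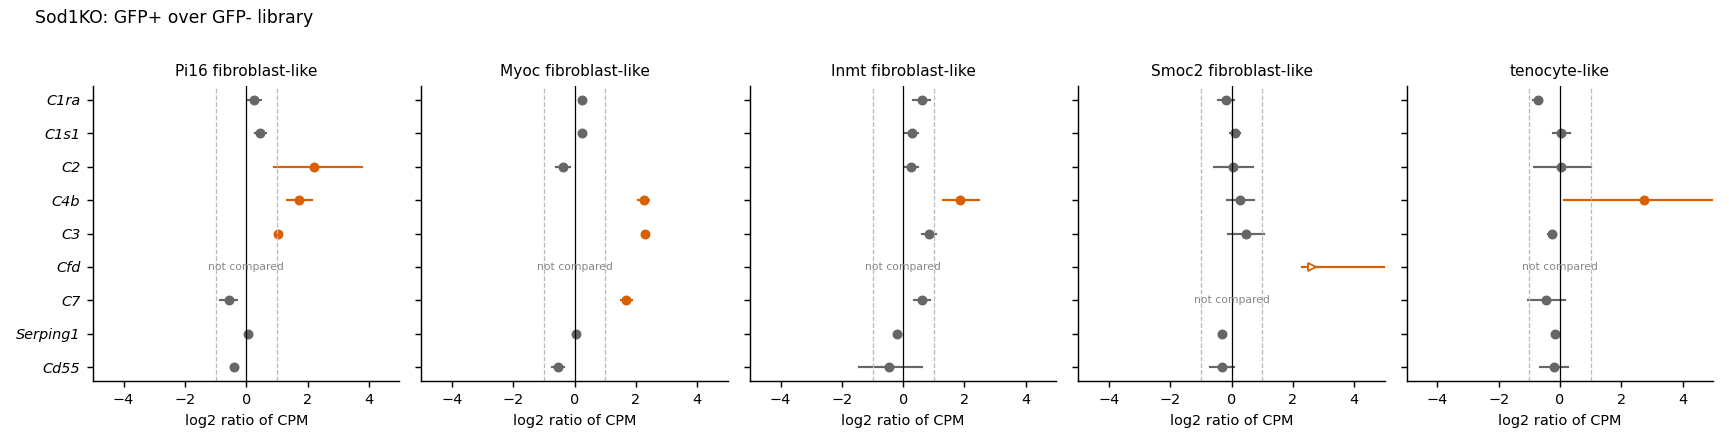
Log2 ratio of GFP+ over GFP- in Sod1KO for each gene and class, with bars for the 95% counting interval. Orange marks a ratio of at least 2-fold and an open triangle a gene with 0 UMIs in 1 library, drawn with that 0 set to 3 UMIs. In the Myoc class C3, C4b and C7 lie at 1.69 to 2.28 and Serping1, C1ra and C1s1 between 0.05 and 0.25.

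The same split was seen in the share of cells. At 1000 UMIs per cell, C3 was seen in 37.5% (31.7 to 43.5) of GFP+ and 9.64% (7.33 to 12.4) of GFP- Myoc cells of Sod1KO (62.2% and 30.5% unthinned), C4b in 17.8% (13.5 to 22.9) and 4.46% (2.91 to 6.52; 45.1% and 18.2% unthinned), and C7 in 13.8% (9.97 to 18.5) and 4.82% (3.2 to 6.94; 39.3% and 23.2% unthinned). The median depth was 13489 UMIs in GFP+ and 14948 in GFP-. Among the thinned blood endothelial-like cells C4b and C7 were seen in 0 of 304 in GFP+, which allows a share of up to 0.987%, and in 0 of 1598 in GFP-, which allows up to 0.188%. These limits are approximate and not Clopper-Pearson bounds. Serping1, by contrast, was seen in 83.3% and 80.0% of the Myoc cells, against 5.26% and 1.44% of the blood endothelial-like cells. C3 UMIs were concentrated: 50% of them lay in 30 of the 275 GFP+ cells (10.9%) and in 18 of the 560 GFP- cells (3.21%). C1s1 was spread more widely, with 50% of its UMIs in 76 of 275 (27.6%) and 139 of 560 (24.8%) of the same cells.

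The Myoc class was a mixture in this respect. At a finer clustering it split into a group with C3 at 157 CPM in GFP+ and 38.6 CPM in GFP- of Sod1KO (122 and 342 cells) and a group with C3 at 1576 and 416 CPM (152 and 218 cells). C4b followed, at 21.7 and 8.27 CPM in the first and 421 and 113 CPM in the second, and so did C7, at 82.3 and 44.3 CPM and at 254 and 72.3 CPM. The second group also had Serping1 at 2153 and 1890 CPM against 1463 and 1742 CPM, a much smaller gap. Each subgroup kept the direction of the sort difference for C3, C4b and C7. C2 went opposite ways, at 50.7 CPM in GFP+ and 101 CPM in GFP- in the first group and at 55.4 and 28.1 CPM in the second. In WT GFP+ the 2 groups read 108 and 1085 CPM for C3 and 15.4 and 334 CPM for C4b.

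C4b was also higher in GFP+ in the Pi16 and Inmt classes. In Pi16 cells C4b was at 133 CPM in GFP+ and 40.3 CPM in GFP- (1.73, 1.32 to 2.15), C3 at 2275 and 1107 CPM (1.04, 0.96 to 1.12) and C2 at 17.4 and 3.78 CPM (2.20, 0.90 to 3.77), the last on 27 UMIs in GFP+ of which 12 came from 1 cell. Those 3 of 8 genes were at least 2-fold higher, with 6.37% of all genes past that fold in either direction. C7 did not take part, at 115 and 171 CPM (-0.57), and 134 of the 272 C7 UMIs of GFP- came from 1 cell. Without the cell with most C7 in each library that ratio was 0.19. In Inmt cells 1 of 8 genes passed, near the 10.3% of all genes. It was C4b at 153 and 42 CPM (1.86, 1.29 to 2.49), on 376 UMIs in GFP+ and 26 in GFP-. C3 read 485 and 273 CPM there (0.83, or 1.25 without the cell with most C3 in each library) and C7 401 and 263 CPM (0.61). These pooled Inmt values joined finer groups in different proportions. The larger group had C4b at 43.9 and 19.7 CPM and C3 at 197 and 23 CPM (276 and 101 cells). The smaller had C4b at 201 and 65.1 CPM and C3 at 619 and 527 CPM (159 and 28 cells). In Smoc2 cells 1 of 8 passed, beside 7.88% of all genes: Cfd, with 58 UMIs in GFP+ and 0 in GFP-. Its log2 ratio was 2.63 with the 0 set to 3 UMIs, and the interval began at 2.28. Of the 58 UMIs, 56 lay in 1 cell that also held 1628 UMIs of adipocyte markers. In tenocyte-like cells 1 of 8 passed, beside 5.18% of all genes, and it was C4b on 22 UMIs against 1 (2.75, 0.12 to 8.12), which too few UMIs were left to compare without the top cells. C4b in macrophage-like cells ran the opposite way to fibroblasts, at 93.2 CPM in GFP+ and 400 CPM in GFP- of Sod1KO.

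The fractions also differed in other genes. S100b, the gene of the reporter's promoter, was at 42.8 CPM in GFP+ and 23.3 CPM in GFP- Myoc cells of Sod1KO, and markers shared by both kinds of Schwann cell summed to 53.2 and 27.8 CPM. Macrophage markers, of which 8 and 7 of 9 had a UMI and Fcgr1 had none in either, summed to 17.3 and 18.8 CPM and blood endothelial markers to 41.3 and 130 CPM in the same cells. Erythroid markers summed to 2317 and 45 CPM, and 8855 of the 8977 erythroid UMIs of the GFP+ cells were in 1 cell. The part of these RNAs in the sort difference was not tested. A cell's class, its reporter state and the gate cannot be told apart in 1 library each.

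The genotype question was put to the GFP+ libraries, which are the same Sod1KO GFP+ library as above set against WT GFP+, so that the sort and the genotype ratios share that library and are not independent. C7 was lower in Sod1KO in each class compared as a whole. It was at 115 CPM in Sod1KO and 288 CPM in WT in Pi16 cells, a log2 ratio of -1.32 (-1.57 to -1.07), at 182 and 297 CPM in Myoc cells (-0.70, -0.86 to -0.55), at 401 and 560 CPM in Inmt cells (-0.48, -0.61 to -0.35) and at 2.68 and 13.1 CPM in tenocyte-like cells (-2.29, -2.67 to -1.93). C7 UMIs were few and uneven: 98 of the 510 in WT Pi16 cells and 93 of the 249 in WT tenocyte-like cells came from 1 cell each. Without the cell with most C7 in each library the log2 ratios were -1.23 in Pi16, -0.61 in Myoc, -0.46 in Inmt and -1.71 in tenocyte-like cells. At a finer clustering the Inmt class did not keep the direction throughout. Its larger group had C7 at 320 CPM in Sod1KO and 290 CPM in WT (276 and 207 cells), its smaller group 443 and 673 CPM (159 and 134 cells). Both finer Myoc groups were lower in Sod1KO, at 82.3 against 131 CPM and at 254 against 390 CPM. The Smoc2, nonmyelinating Schwann-like and macrophage-like cells had fewer than 20 C7 UMIs in both libraries together. In the GFP- libraries, whose WT classes were too small for a ratio, C7 read 56.5 CPM in Sod1KO and 260 CPM in the 34 WT Myoc cells. Of those 34 cells, 23 fell in the finer Myoc group with less C3 and read 53.3 CPM, against 44.3 CPM in Sod1KO GFP- (342 cells). The high WT value thus came mainly from the few other cells.

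In the 3 fibroblast-like classes with enough C7, few other genes were far apart. In Pi16 cells C7 was the 1 gene of 8 at least 2-fold apart, beside 5.75% of all genes, with C3 at 2275 and 2064 CPM (0.14), Serping1 at 1746 and 1822 CPM (-0.06), Cd55 at 612 and 601 CPM (0.03), C4b at 133 and 169 CPM (-0.34, -0.60 to -0.08) and C2 at 17.4 and 10.1 CPM (0.78, -0.14 to 1.72). In Myoc cells 0 of 8 passed, beside 5.22% of all genes, with C3 at 983 and 734 CPM (0.42), C2 at 53.4 and 69.6 CPM (-0.38, -0.69 to -0.07) and Serping1 at 1865 and 1855 CPM (0.01). In Inmt cells 0 of 8 passed, beside 5.23%, with C3 at 485 and 549 CPM (-0.18).

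The other 4 classes had more of the genes past the fold. In Smoc2 cells 3 of 8 were higher in Sod1KO, beside 10.1% of all genes in either direction: C2 at 26.3 and 9.56 CPM (1.46, 0.59 to 2.46), C4b at 56.5 and 23.1 CPM (1.29, 0.72 to 1.90) and Cfd on 58 and 3 UMIs (2.72, 1.10 to 5.04), the last from the 1 cell with adipocyte markers. Macrophage markers summed to 12.8 CPM in Sod1KO and 63.7 CPM in WT there, and erythroid markers to 877 and 14.3 CPM, with 3175 of the 3229 erythroid UMIs of Sod1KO in 1 cell. Perineurial markers summed to 383 CPM in Sod1KO and 206 CPM in WT and those of the Myoc class to 7719 and 18424 CPM. The Myoc list also named the Smoc2 class, and Smoc2 and Cxcl14 of that list read 3727 and 4677 CPM there over all libraries. Its sum thus holds the class's own markers and does not measure RNA of Myoc cells. A subgroup of 108 Sod1KO cells at the finer clustering, with C2 at 44.3 CPM and C4b at 59 CPM, had fewer than 20 cells in WT GFP+. In the subgroup found in both, C2 read 20.4 and 9.16 CPM and C4b 55.8 and 19.2 CPM. The part of these shifts in the ratios was not tested. In tenocyte-like cells 3 of 8 were lower, beside 4.97%: C7, C3 at 47.5 and 101 CPM (-1.08, -1.18 to -0.99) and C4b on 22 and 31 UMIs (-1.20, -2.06 to -0.37). The C4b ratio was under 2-fold, at -0.27, with no doublet removal, at -0.87 with a stricter cell filter and at -0.57 with clusters weighted equally. The median log2 ratio of the genes was -0.47 in tenocyte-like cells, against 0.03 over all genes compared. Fibroblast markers summed to 117580 and 130412 CPM in these cells and those of the Myoc class to 871 and 932 CPM. The fibroblast list holds genes that are high in tenocyte-like cells themselves, such as Dcn at 21110 CPM over all libraries, so its sum does not measure fibroblast RNA. The part of fibroblast RNA in the tenocyte values was not tested. At a finer clustering the tenocyte-like groups with most cells both had less C3 in Sod1KO, at 61.3 against 124 CPM and at 64.4 against 129 CPM.

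In nonmyelinating Schwann-like cells 4 of 6 genes were lower in Sod1KO, beside 13.5% of all genes: C2 (-1.73, -2.72 to -0.79), C1ra at 5.65 and 12.9 CPM (-1.19, -1.69 to -0.70), C1s1 at 5.37 and 14.6 CPM (-1.44, -1.93 to -0.95) and Serping1 at 18.7 and 43.2 CPM (-1.21, -1.47 to -0.94). C4b, the 1 gene with a high level there, was at 111 and 108 CPM. The class was made of 4 clusters in different proportions, with 332 WT and 220 Sod1KO cells in the first, 31 and 544 in the second, 12 and 88 in the third and 27 and 31 in the fourth. With the clusters weighted equally the log2 ratios of C2 and C1ra turned to 0.84 and 0.25. Under some alternatives the other ratios called also fell under 2-fold, C1s1 reaching -0.80 and Serping1 -0.07. C3, not called at 0.64, ran from -3.46 to 1.33 over the alternatives. It had 50 UMIs in Sod1KO and 20 in WT, of which 30 and 15 lay in 1 cell each. C4b itself read 150, 46.9, 53.1 and 329 CPM in these clusters. Macrophage markers summed to 434 CPM in Sod1KO and 4514 CPM in WT in this class, and their part was not tested. In macrophage-like cells 2 of 6 genes were lower, beside 7.34% of all genes: C4b at 93.2 and 218 CPM (-1.23, -1.44 to -1.01) and Cd55 on 10 and 16 UMIs (-1.01, -2.31 to 0.22), whose interval reached past 0. Macrophage markers summed to 11815 CPM in Sod1KO and 15596 CPM in WT in these cells and fibroblast markers to 350 and 193 CPM, and their part was not tested.

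**Figure D5:**
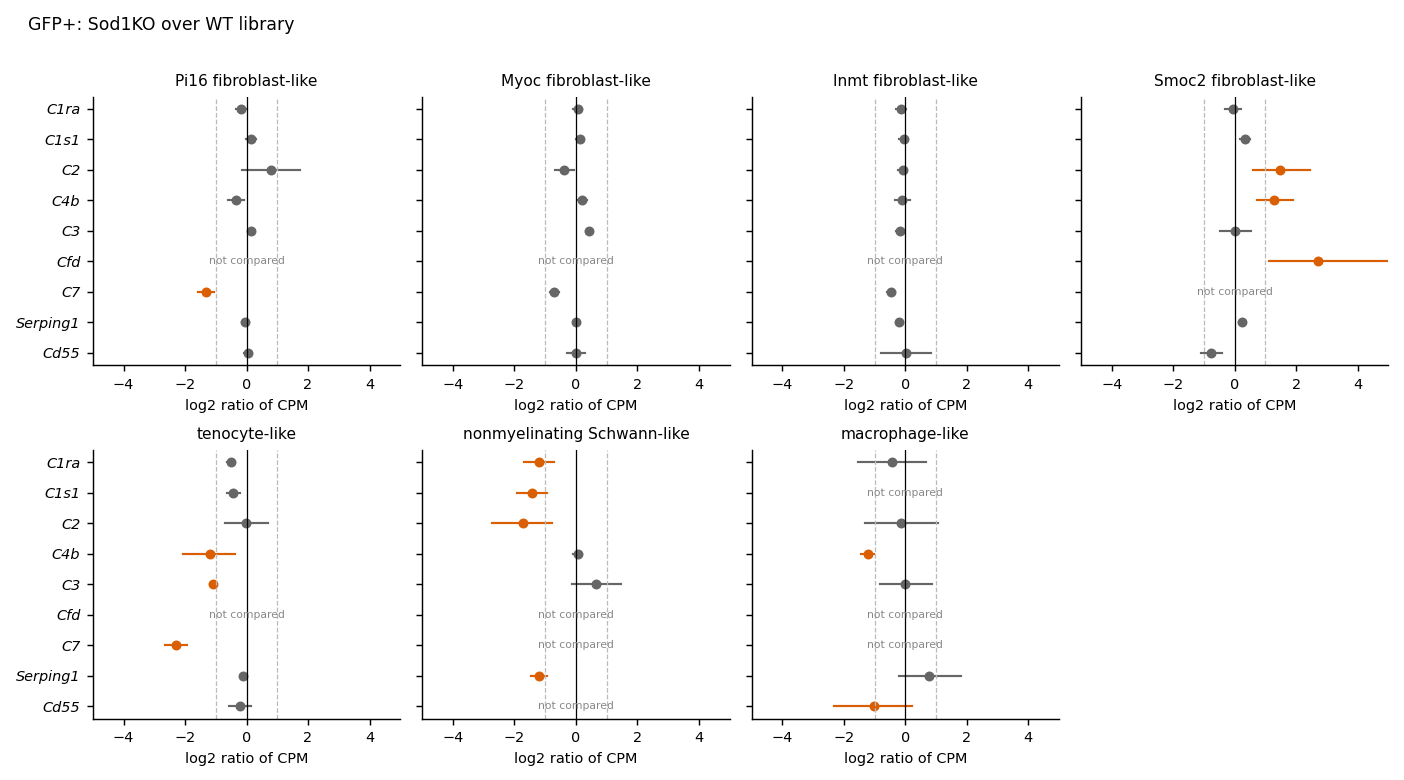
Log2 ratio of Sod1KO over WT in the GFP+ libraries for each gene and class, with bars for the 95% counting interval; orange marks a ratio of at least 2-fold, and genes under 20 UMIs are marked as not compared. C7 lies below 0 in the Pi16, Myoc, Inmt and tenocyte-like classes (-0.48 to -2.29), and Serping1 lies between -0.20 and 0.01 in the first 3 of these.

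Across 92 sums of a cluster within a library the genes went with others in different ways; the sums share their libraries and are no replicates. On log2(CPM + 10) the 3 genes most like C3 were Scara5 (Pearson r = 0.90), Clec3b (0.89) and Sfrp2 (0.87), those most like C7 were Ifi205 (0.88), Scara5 (0.87) and Inmt (0.86), and those most like C4b were Naaa (0.84), Mmp19 (0.73) and Sfrp1 (0.72). C2 went with Gabra3 (0.88), Fhl2 (0.85) and Cldn22 (0.81), C1ra with Adamts2, Ndn and Gsn (0.87 to 0.88), C1s1 with Ebf2 (0.89), Nbl1 (0.87) and Col6a3 (0.83), Serping1 with Nbl1 (0.92), Adamts2 (0.88) and Col6a3 (0.87), and Cd55 with Gm15675 (0.87), Islr2 (0.83) and Prdm8 (0.75). The genes nearest to Cfd were Pck1 (0.92), Retn (0.89) and Cyp2e1 (0.88), which fat cells express. Of the 2355 Cfd UMIs kept in Sod1KO GFP+, 2138 lay in 1 cell, so the Cfd level of its cluster in that library rests mainly on that cell. Among the 9 genes themselves C1ra and Serping1 were closest (0.91), followed by C3 and C7 (0.87), C1s1 and Serping1 (0.82) and C1ra and C1s1 (0.81), while C4b and C1s1 reached 0.17 and Cfd lay between -0.15 and -0.05 with the others.

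The rest of the complement system was read from a fixed list in the same cells. Of 15 initiators, 2 reached 20 CPM in a fibroblast-like class, the collectins Colec12 (473 CPM in Myoc) and Colec11 (21.5 CPM), whereas C1qa, C1qb and C1qc, the subunits of C1q, were at 2516, 2352 and 1849 CPM in macrophage-like cells. Of 8 further convertase and terminal genes, 1 did: Cfb, factor B, at 151 CPM in the Inmt class. Of 13 regulators 7 did, among them Clu at 280 CPM in the Myoc class and Vtn at 83.5 CPM in the Smoc2 class, the last with 1713 CPM in pericyte-like cells. Of 8 receptors 0 did, and C3ar1, C5ar1 and Itgam read 329, 347 and 216 CPM in macrophage-like cells. In the sort comparison of Myoc cells Cfb was at 200 CPM in GFP+ and 123 CPM in GFP- (log2 ratio 0.70). Of 10 regulators with enough UMIs there 2 were at least 2-fold higher in GFP+, Csmd1 at 163 and 25.2 CPM (2.69) and Cfp, properdin, at 3.36 and 1.2 CPM (1.48, 0.18 to 2.83), and 1 was lower, Clu at 139 and 356 CPM (-1.35). Of 3 initiators 1 was higher, Masp1 at 20.6 and 6.95 CPM (1.57, 1.06 to 2.08). Over all libraries Csmd1 was highest in nonmyelinating Schwann-like cells, at 4682 CPM, and Cfp in macrophage-like cells, at 339 CPM. The part of RNA from such cells in the Csmd1 and Cfp ratios was not tested.

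Genes of the pathways known to induce complement were counted in the same Myoc cells. Of 14 interferon-response genes 0 were at least 2-fold apart between the Sod1KO fractions, with a median log2 ratio of 0.05, and of 7 acute-phase and NF-kB genes 1 was higher and all 7 lay above 0, with a median of 0.42. The median over all genes compared was -0.04. In Pi16 cells the interferon list had a median of -0.11 with 3 genes at least 2-fold lower in GFP+, and the acute-phase list 0.57 with 2 higher. Between genotypes the acute-phase list had medians of -0.22 in Myoc and -0.62 in Pi16 cells of GFP+, with 1 gene at least 2-fold lower in each, and the interferon list medians of 0.23 with 3 genes higher and -0.33 with 2 genes lower. In these 4 comparisons 0 of 5 glucocorticoid-response genes and 0 of 6 dissociation and heat-shock genes were at least 2-fold apart. The fold used here says nothing of smaller shifts, and the medians of the glucocorticoid list ran from -0.57 to 0.31.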

How the data were processed

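The authors aligned reads of 3' droplet libraries (10x Genomics) and deposited filtered gene-by-barcode matrices of UMI counts, 1 per library, from which ambient RNA, low-quality cells and doublets had not been removed. The file headers and labels name Cell Ranger 7.1.0 and the labels genome build mm10 and Seurat 4.30, whereas the study's methods name another Cell Ranger release and build. Coordinates here come from RefSeq GRCm38.p6.

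Barcodes with over 200 genes and under 10% mitochondrial UMIs were kept, as in the study's methods, leaving 4767, 6291, 1665 and 5430 of the 5498, 7267, 2052 and 6598 barcodes (WT GFP+, Sod1KO GFP+, WT GFP-, Sod1KO GFP-). Simulated doublets (0.8% per 1000 barcodes, 50 neighbours) led to the removal of 186, 351, 17 and 284. Clusters came from 2000 variable genes without complement genes, 30 principal components, 20 neighbours and Leiden resolution 1; 24 of 37 were named from marker lists. Names were rebuilt and may differ from the study's. Levels (CPM) are the summed UMIs of a gene over those of all genes in a class and library. Ratios needed 20 UMIs in both libraries together and 50 cells in each, and at least 2-fold was called. Shares were thinned to 1000 UMIs per cell. All 9 genes are named in the text. The genes, lists and rules were chosen with earlier results of these data known. Beyond these genes, the 3 most alike per member and the fixed lists are named. Scripts were checked on simulated data. Alternatives covered doublets, filters, scaling, ambient RNA, resolution, cluster weights, folds and totals. Clustering used leidenalg 0.10.2 with igraph 0.11.9 and scikit-learn 1.9.0, figures matplotlib 3.10.9, and tables pandas 2.3.3, scipy 1.17.1 and numpy 2.4.6, in Python 3.11.15.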

Additional observations from a re-analysis of the deposited data

How the results depend on the processing

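Of 22 ratios of at least 2-fold between libraries, 17 had a value under each of the 12 alternatives that give one, and of these 15 kept their sign and 12 stayed at least 2-fold. The other 5, Cfd in Smoc2 cells in both comparisons, C2 in Pi16 and C4b in tenocyte-like cells of the sort and Cd55 in macrophage-like cells, had too few UMIs under some. The Pi16, Myoc, Inmt, Smoc2 and macrophage-like classes were 1 cluster each, so equal cluster weights could not change their ratios. The Pi16 class also had only 1 subcluster of at least 20 cells, so subcluster weights could hardly change its ratios. The C3, C4b and C7 ratios of Myoc cells between the sorted fractions ran from 1.93 to 2.38, 1.87 to 2.32 and 1.53 to 1.74, and the C7 ratio of Pi16 cells between genotypes from -1.34 to -1.08. In nonmyelinating Schwann-like cells, weighting the clusters equally turned C2 to 0.84 and C1ra to 0.25. Under that weighting 1 of the 6 genes compared was at least 2-fold apart, a count that is not limited to the genes called before. Each gene called in that class fell under 2-fold under some alternative, and C3, not called there, ran from -3.46 to 1.33. For macrophage-like cells the count fell to 1 with the mean of per-cell CPM, median-of-ratios scaling, clustering with the complement genes, at least 100 UMIs, totals without Gm42418 and mitochondrial genes, or without cells with adipocyte markers. Between the sorted fractions the Inmt count was 3 with a stricter cell filter or clustering with the complement genes and 2 with the mean of per-cell CPM, and the Smoc2 count was 2 with no doublet removal and 0 without cells with adipocyte markers. Without the cell of each library that held most UMIs of a gene, the sort counts were 2 in Inmt, 0 in Smoc2 and 0 in tenocyte-like cells, where too few UMIs were left for the gene called. At a fold of 1.5 the genotype counts were 2 in Pi16 and 1 in Myoc cells. The share of all genes was not counted at that fold or under the other alternatives, so these counts have no background beside them. The cause was not tested. The alternatives without single top cells, adipocyte-marker cells, shared barcodes, WT GFP- clusters or Gm42418, and the subcluster weights, were chosen after seeing the data. No paired analysis was possible because each group was 1 library and ratios came from no test. Small classes, mainly of WT GFP-, limited depth.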
